A study of Drosophila melanogaster with 2 samples.

Results

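miR-308 and miR-11 are a pair of Drosophila melanogaster microRNAs (miRNAs, short RNAs that pair with mRNAs through their seed, bases 2 to 8, and lower the output of those mRNAs). They were taken by name, as the hairpins dme-mir-308 and dme-mir-11, from both deposited miRNA tables, and are 2 of the 235 hairpins listed in at least 1 table. The tables count reads per hairpin, and a count covers whichever arm of the hairpin the reads came from. The small RNAs, of 18 to 30 nt, came from hand-dissected ovaries of females 3 to 5 days old. One library was made from pelo1/+ ovaries, which carry the pelo allele 1 over a normal copy, and one from peloPB60/1 ovaries, which carry allele PB60 over the same allele 1. Both groups therefore carry allele 1, and the libraries differ in whether the other copy is normal or PB60. Pelota, the product of pelo, rescues ribosomes that have stalled on an mRNA, and germline stem cells of the fly ovary need it to be maintained.

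K-box miRNAs share a seed that pairs with the K box, a short motif in the 3' ends of mRNAs that was first described in Notch pathway target genes of the fly. The fly family is made up of miR-2, miR-6, miR-11, miR-13 and miR-308, and several of its members are known to restrain pro-apoptotic genes. miR-11 lies within E2f1, the gene of a transcription factor that drives entry into S phase and also apoptosis, and it is known in flies to limit the cell death that E2f1 can trigger. miR-308 lies within a ribosomal protein gene, and has been described in flies as part of a feedback loop with Myc, the growth regulator. An intronic miRNA is cut from the transcript of its host gene or from a transcript of its own.

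In the Ensembl annotation of BDGP6, a later build than the BDGP5 named in the submitters' processing notes, each name had a single entry. miR-308 lay on chromosome arm 2R in an intron of 248 nt of RpS23, the gene of a protein of the small ribosomal subunit, with a hairpin of 63 nt. miR-11 lay on arm 3R in an intron of 1115 nt of E2f1, with a hairpin of 75 nt. Both hairpins were on the strand of their host, in its last intron, and overlapped no exon of it. miR-998 lay in the same E2f1 intron, 475 bp from miR-11, and so offered a comparison within 1 host transcript. Of the 235 hairpins, 94 lay in an intron of a protein-coding gene on the same strand, and miR-308 was the 1 whose host is a ribosomal protein gene. Host transcripts are not measured in small RNA libraries of this kind.

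The miRNA tables held 1819781 reads in pelo1/+ and 1999224 reads in peloPB60/1. There was 1 library per genotype, so each difference below is between these libraries, has no replicate check and carries no p-value. Intervals are 95% intervals that cover counting error only. The tissue label was set against listed markers. The 3 follicle cell miRNAs (miR-989, miR-318 and miR-994) summed to 26.9% and 45.9% of the miRNA reads of pelo1/+ and peloPB60/1, the 6 female germline miRNAs to 7.38% and 4.63%, the 2 muscle miRNAs to 0.222% and 0.691%, the 6 testis miRNAs to 0.0306% and 0.0361%, and the 4 neuronal miRNAs to 0.0108% and 0.0199%. The members did not all follow these sums. Among the follicle cell miRNAs, miR-989 was higher (17.4% and 44.4% of the reads), miR-994 was lower (log2 ratio -3.69) and miR-318 had -0.05. Among the germline miRNAs, the 5 other than miR-184 (bantam and miR-310 to miR-313) were lower, and the median log2 ratio of all 6 was -2.12. Of these 5, miR-310 had the log2 ratio nearest to 0, -1.21, and was within 2-fold when miR-989 was left out of the totals. miR-184 had a log2 ratio of 0.19, with 3.28% and 3.72% of the reads, so the lower sum came from the other 5. The muscle sum was nearly all miR-1, with 4037 and 13793 reads, and miR-133 had 12 reads in each library. Of the 6 testis miRNAs (miR-959 to miR-964), 4 had log2 ratios below 0, and 2 of these were lower by 2-fold or more. Their sum was not lower because of miR-962, with 117 and 443 reads. None of these markers was at 0 in either library. The part that these marker shifts have in the values below was not tested, and in a whole tissue fewer cells of a type and less RNA per cell cannot be told apart.

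miR-308 was far lower in the peloPB60/1 library, and miR-11 was close to its pelo1/+ level. miR-308 had 61127 reads in pelo1/+ and 7783 reads in peloPB60/1, although the second library was the deeper. As a share of miRNA reads this was 3.36% (interval 3.33 to 3.39%) in pelo1/+ and 0.389% (0.381 to 0.398%) in peloPB60/1. On the scale of counts per 1000000 miRNA reads (CPM), miR-308 stood at 33590 in pelo1/+ and at 3893 in peloPB60/1, an 8.63-fold lower level. The log2 ratio, peloPB60/1 over pelo1/+ throughout, was -3.11 (interval -3.14 to -3.08). The counting intervals of the libraries did not overlap and lay far apart.

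miR-11 had 2976 reads in pelo1/+ and 2465 reads in peloPB60/1. Its share of miRNA reads was 0.164% (interval 0.158 to 0.170%) in pelo1/+ and 0.123% (0.118 to 0.128%) in peloPB60/1. Its level of 1635 CPM in pelo1/+ compared with 1233 CPM in peloPB60/1, which is 1.33-fold lower, with a log2 ratio of -0.41 (interval -0.49 to -0.33). The counting intervals of the shares did not overlap, but the difference was below the 2-fold size used here to call a hairpin higher or lower. How much this level varies between ovary samples of 1 genotype was not measured.

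**Figure D1:**
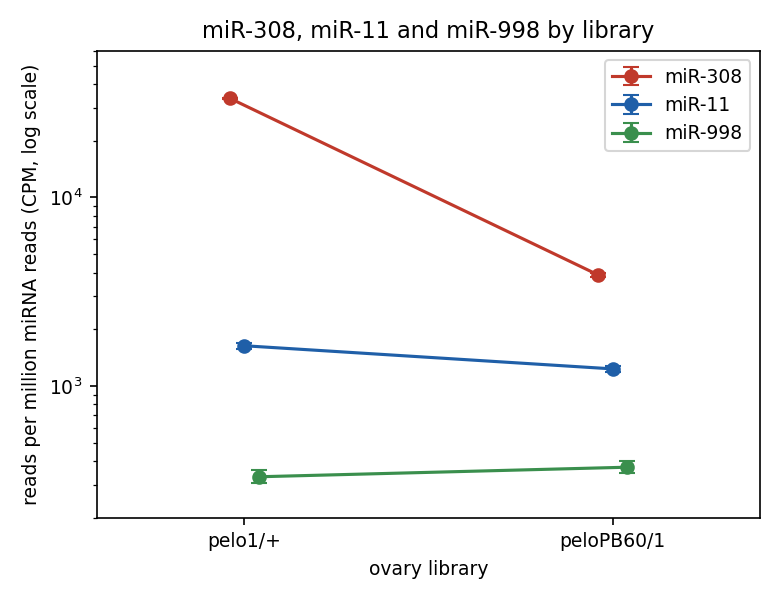
Level of miR-308, miR-11 and miR-998 (CPM, log scale) in the pelo1/+ and peloPB60/1 ovary libraries. Points are single libraries, bars are 95% counting intervals, and lines join the same hairpin. miR-308 goes from 33590 to 3893 CPM, miR-11 from 1635 to 1233 CPM and miR-998 from 330.3 to 371.1 CPM.

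A hairpin was called higher or lower when its difference was 2-fold or more and the interval of its ratio did not include 1. Hairpins were compared when their counts in the libraries summed to 50 or more. Of these 108 hairpins, 47.2% were called, 31.5% as lower and 15.7% as higher. That excess of lower calls depended on the scaling, with 34 lower and 17 higher here, 25 and 23 with median-of-ratios factors, and 24 and 27 when miR-989 was left out of the totals. miR-308 was among the lower ones and miR-11 was in neither class, so a call of lower was by itself common. The size of the miR-308 difference was less common. Only 5 of the 108 had a log2 ratio below that of miR-308, whereas 50 were below and 57 above miR-11. Of the 28 hairpins with at least 5000 reads in pelo1/+, 2 had a log2 ratio lower than that of miR-308. That set was chosen on pelo1/+ reads alone, so it is not a neutral reference for abundant hairpins. It leaves out those abundant only in peloPB60/1, such as miR-984 with 307 reads in pelo1/+ and 11539 reads in peloPB60/1. The median log2 ratio of all 108 was -0.34. Relative to that median, miR-308 lay at -2.77 and miR-11 at -0.07 on the log2 scale.

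In percentage points of the miRNA reads, the drop of miR-308 was also among the larger ones. Such points are relative to the total, of which miR-989 made up 17.4% in pelo1/+ and 44.4% in peloPB60/1. The size of each drop therefore depends on the total used. The share of miR-308 dropped by 2.97 percentage points, which ranked 4 among the drops, after those of miR-306 (8.91), miR-994 (7.89) and miR-305 (5.65). It made up 8.17% of the summed drops over the 147 hairpins whose share was lower in peloPB60/1. The drop of miR-11, 0.040 percentage points, made up 0.111% of that sum.

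**Figure D2:**
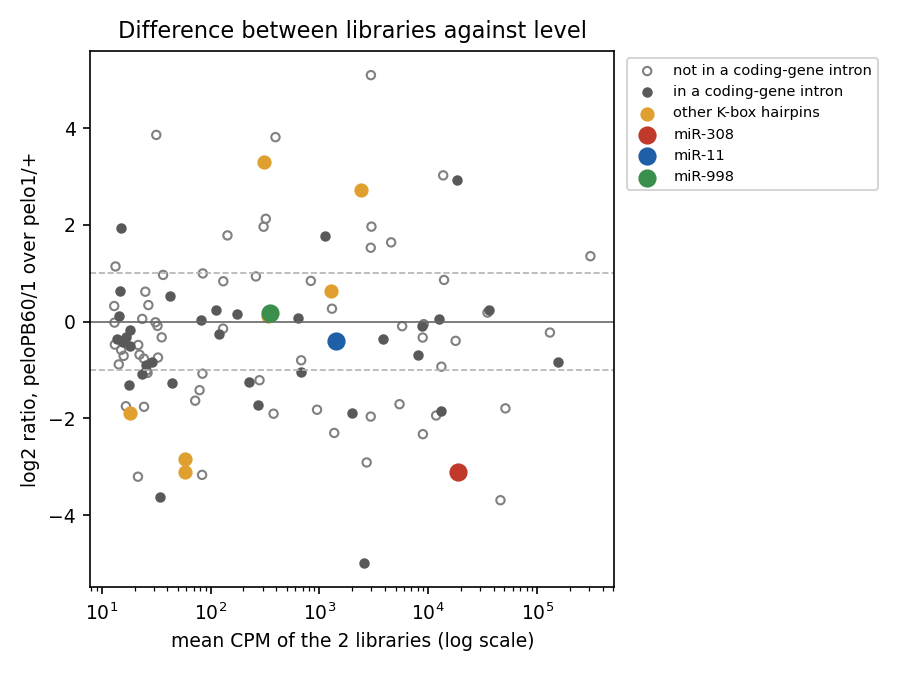
Log2 ratio of peloPB60/1 over pelo1/+ against the mean CPM of the libraries (log scale) for 108 hairpins, with filled grey points in introns of protein-coding genes, open points elsewhere, and the K-box hairpins and miR-998 in colour. Dashed lines mark 2-fold differences. miR-308 lies at -3.11 among the abundant hairpins and miR-11 at -0.41, near the median of -0.34.

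The order of the hairpins by reads does not depend on how a library is scaled. miR-308 ranked 6 of 234 listed hairpins in pelo1/+ and 26 of 235 in peloPB60/1. Its neighbours above in pelo1/+ were miR-994 and miR-305, with 155515 and 144498 reads, and those below were miR-9c and miR-184, with 60750 and 59612 reads. The counting interval of miR-308, 60643 to 61614 reads, overlapped that of miR-9c but not those of the other 3, so miR-308 and miR-9c were not separated in pelo1/+. In peloPB60/1 the neighbours were miR-125 and miR-2b-2 above, with 8786 and 8417 reads, and miR-33 and miR-312 below, with 6754 and 5922 reads. None of their intervals overlapped that of miR-308, 7611 to 7958 reads. In that library miR-9c, its close neighbour in pelo1/+, ranked 4.

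miR-11 ranked 31 in pelo1/+ and 33 in peloPB60/1. In pelo1/+ it stood below miR-313 and miR-1, with 4139 and 4037 reads, and above miR-125 and miR-92b, with 2777 and 2698 reads. Its interval, 2870 to 3085 reads, overlapped that of miR-125 alone among these 4. In peloPB60/1 it stood below miR-13b-2 and miR-14, with 3066 and 2845 reads, and above miR-277 and miR-87, with 2413 and 2138 reads. There its interval, 2369 to 2564 reads, overlapped that of miR-277. The rank of miR-11 was thus within 2 places in these libraries, while its neighbours were different hairpins.

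**Figure D3:**
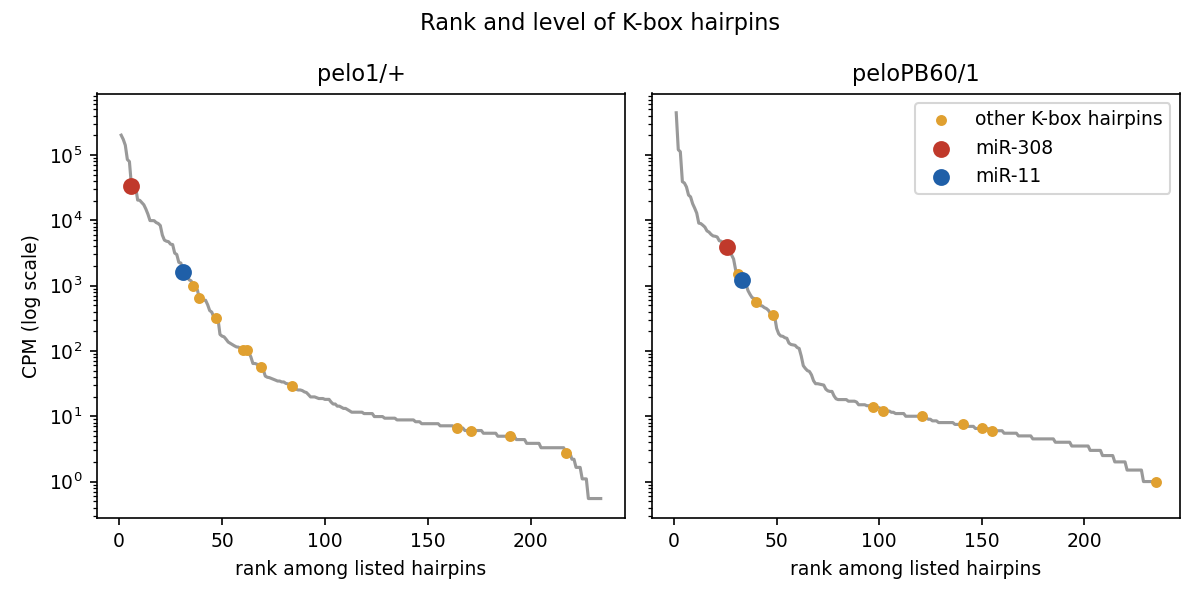
Level (CPM, log scale) against rank for the hairpins listed in each library (grey line), with miR-308, miR-11 and the other 11 K-box hairpins marked. miR-308 stands at rank 6 in pelo1/+ and 26 in peloPB60/1, and miR-11 at 31 and 33.

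The ratio of miR-308 to miR-11 compares hairpins within a library and needs no scaling. There were 20.5 reads of miR-308 for each read of miR-11 in pelo1/+ (interval 19.8 to 21.3) and 3.16 in peloPB60/1 (3.02 to 3.31). The ratio was 6.51-fold lower in peloPB60/1, a log2 change of -2.70 (interval -2.79 to -2.62). miR-308 was the more abundant of the pair in both libraries. The reads of miR-308 differed far more between the libraries than those of miR-11.

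miR-998 was used to ask whether the hairpins of the E2f1 intron had like values. It had 601 reads in pelo1/+ and 742 reads in peloPB60/1, with a log2 ratio of 0.17 (interval 0.01 to 0.33). The ratio of miR-11 to miR-998 was 4.95 in pelo1/+ (interval 4.54 to 5.41) and 3.32 in peloPB60/1 (3.06 to 3.61), a log2 change of -0.58 (interval -0.75 to -0.40). Both hairpins of E2f1 were within 2-fold of no difference, with opposite signs in this scaling and with the same sign, above 0, when miR-989 was left out of the totals. Against miR-998, miR-308 went from 101.7 reads to 10.5 reads per read of miR-998, a log2 change of -3.28 (interval -3.44 to -3.12).

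Within the K-box family, miR-308 made up most of the reads in pelo1/+ and was no longer the leading member in peloPB60/1. The 13 hairpins of the family list, drawn up from general knowledge, held 68229 reads in pelo1/+, of which 89.6% (interval 89.4 to 89.8%) were miR-308. In peloPB60/1 they held 23664 reads, of which 32.9% (32.3 to 33.5%) were miR-308 and 35.6% (35.0 to 36.2%) were miR-2b-2. miR-11 made up 4.36% (4.21 to 4.52%) of the family in pelo1/+, where it ranked 2, and 10.4% (10.03 to 10.81%) in peloPB60/1, where it ranked 4 after miR-2b-2, miR-308 and miR-13b-2. The family as a whole summed to 37493 CPM in pelo1/+ against 11837 CPM in peloPB60/1, a log2 ratio of -1.66 (interval -1.68 to -1.64). Without miR-308 the other 12 hairpins summed to 3903 CPM in pelo1/+ against 7944 CPM in peloPB60/1, a log2 ratio of 1.03 (interval 0.98 to 1.07). Most of that second difference was miR-2b-2, at 638.5 and 4210 CPM. Without it as well, the remaining 11 summed to 3264 and 3733 CPM, a log2 ratio of 0.19 (interval 0.14 to 0.24). The lower family total thus came from miR-308 reads.

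**Figure D4:**
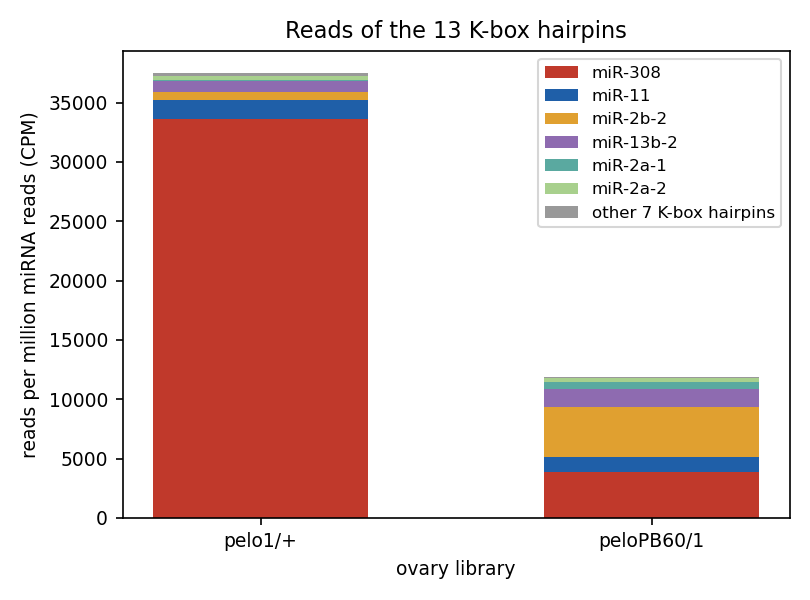
Reads of the 13 K-box hairpins per 1000000 miRNA reads (CPM) in each library, stacked by hairpin. miR-308 is 89.6% of the stack in pelo1/+ and 32.9% in peloPB60/1, where miR-2b-2 is 35.6%.

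Of the 13 family hairpins, 9 passed the count filter. 2 were called higher, 4 were called lower, among them miR-308, and 3 were in neither class, among them miR-11, where 15.7% of all 108 were called higher and 31.5% lower. The other lower members were miR-13a and the numbered copies miR-2b-1 and miR-13b-1. These 3 had 186, 52 and 191 reads in pelo1/+ and 28, 15 and 24 reads in peloPB60/1. Their pelo1/+ reads alone met the filter, and their peloPB60/1 reads alone did not. The 9 had a median log2 ratio of -0.41 against -0.34 for all 108, or 0.16 against 0.23 when miR-989 was left out of the totals. Both medians of the 9 were the values of miR-11 itself. For the 7 other than the pair the median was 0.12 in the first scaling, with 3 below 0. The members below the filter were miR-2c, with 12 reads in each library, and the 3 miR-6 hairpins, with 25 and 35 reads in sum. Members low in both libraries were thus left out, so the share of lower calls in the family depends in part on the filter. With at least 1 summed count as the filter, the family median was -0.14 against -0.22 for all hairpins. miR-13a, a member with 186 and 28 reads in pelo1/+ and peloPB60/1, had a log2 ratio of -2.85 (interval -3.50 to -2.29), close to that of miR-308 at a far lower level. miR-13b-1 had 191 and 24 reads and a log2 ratio of -3.10, but shares its mature sequence with miR-13b-2, and reads may have been divided between such copies. Summed over copies, miR-13b had a log2 ratio of 0.49, miR-2a of 1.26 and miR-2b of 2.66. Among the members of a single name, miR-308 and miR-13a were therefore lower, and miR-11 and miR-2c were uncalled or below the filter.

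The 6 family hairpins that lie in introns were miR-308, miR-11, miR-13b-2 in the chaperonin subunit gene CCT2, and miR-2a-1, miR-2a-2 and miR-2b-2 in spi, the gene of an EGF receptor ligand. miR-308 and miR-11 were the 2 with a log2 ratio below 0, that of miR-11 being above 0 when miR-989 was left out of the totals. The other 4 had log2 ratios of 0.63 for miR-13b-2, 3.30 for miR-2a-1, 0.12 for miR-2a-2 and 2.72 for miR-2b-2. All 4 are numbered copies, and reads may have been divided between such copies. Summed over copies, the log2 ratios were 0.49 for miR-13b, 1.26 for miR-2a and 2.66 for miR-2b. The same limit holds for the ratios that follow. The ratio of miR-308 to miR-2b-2 went from 52.6 (interval 49.6 to 55.8) in pelo1/+ to 0.925 (0.8965 to 0.9537) in peloPB60/1, so the order of these hairpins was turned. The ratio of miR-11 to miR-13b-2 likewise passed from 1.65 (interval 1.55 to 1.75) to 0.804 (0.762 to 0.848).

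The intronic hairpins included higher, lower and uncalled members. Of the 94 intronic hairpins, 41 passed the filter, with 5 called higher, 11 called lower and 25 in neither class. Of all 108 compared hairpins, 15.7% were called higher and 31.5% lower. The intronic median log2 ratio was -0.31, or 0.03 with median-of-ratios factors and 0.26 when miR-989 was left out of the totals. The medians of all 108 moved alike, with -0.34, 0.0 and 0.23 in the same order. The 67 compared hairpins outside introns had 12 called higher, 23 called lower and 32 in neither class, with a median of -0.40 in the first scaling. The 41 intronic hairpins include the pair. In the same scaling the other 39 had 5 called higher, 10 called lower and 24 in neither class, with a median of -0.26. Among the intronic hairpins miR-308 ranked 2 in pelo1/+, after miR-306, and 9 in peloPB60/1. 2 intronic hairpins past the filter had a lower log2 ratio than miR-308, and both are named here for that value. These were miR-79, with 9059 and 312 reads and a log2 ratio of -4.99, in grp, the gene of the checkpoint kinase Chk1, and miR-1013, with 117 and 10 reads and -3.62. miR-79 shares its grp intron with miR-306 and miR-9b, which had log2 ratios of -0.84 and 2.93, and miR-9c, in another grp intron, had 0.23. miR-12, in the Golgi protein gene Gmap, had -1.84. miR-7, in HnRNP-K, had 0.06, miR-283, in Gmap, had -0.09, and miR-995, in the cell cycle kinase gene Cdk2, had -0.70.

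The hairpins whose log2 ratio was nearest to that of miR-308 over these 2 libraries were miR-13b-1 (-3.10), miR-314 (-3.17), miR-993 (-3.21), miR-311 (-2.91) and miR-13a (-2.85). miR-311 was the most abundant of them, with 8721 and 1271 reads, and the other 4 had at most 274 reads in pelo1/+. The interval of miR-311, -3.00 to -2.83, did not overlap that of miR-308, while those of the other 4 did. Those nearest to miR-11 were miR-8 (-0.40), miR-4962 (-0.42), miR-281-2 (-0.35), miR-33 (-0.35) and miR-955 (-0.48). Of these, miR-8 and miR-33 were well counted, with 36918 and 7848 reads in pelo1/+, and the remaining 3 had at most 33 reads there.

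miR-11 and its family are known for restraining cell death in flies, so other miRNAs linked to apoptosis were set beside the pair. Of the 5 listed, 4 passed the filter. bantam, which represses the pro-apoptotic gene hid, was lower, at 18738 and 4873 CPM in pelo1/+ and peloPB60/1 (log2 ratio -1.94). miR-278 was higher, at 1227 and 4781 CPM (log2 ratio 1.96). miR-14 and miR-263a had log2 ratios of 0.26 and 0.86, and miR-263b had 14 and 20 reads. The list's median log2 ratio was 0.56, against -0.34 for all 108 compared hairpins. The lowest of the 4 log2 ratios, that of bantam, was less negative than the -3.11 of miR-308. The female germline list above also holds bantam.

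The scaling of the libraries moves every log2 ratio by the same amount. Under 6 other scalings the log2 ratio of miR-308 ran from -3.12 to -2.54 and stayed past 2-fold. That of miR-11 ran from -0.42 to 0.16 and stayed within 2-fold, with a change of sign when miR-989 was left out of the totals. miR-989, a follicle cell miRNA, had 316447 and 886701 reads in pelo1/+ and peloPB60/1. With median-of-ratios factors the log2 ratio of miR-11 was -0.07, and its interval, -0.14 to 0.01, included no difference. The direction of the miR-11 difference thus depended on the scaling.

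**Figure D5:**
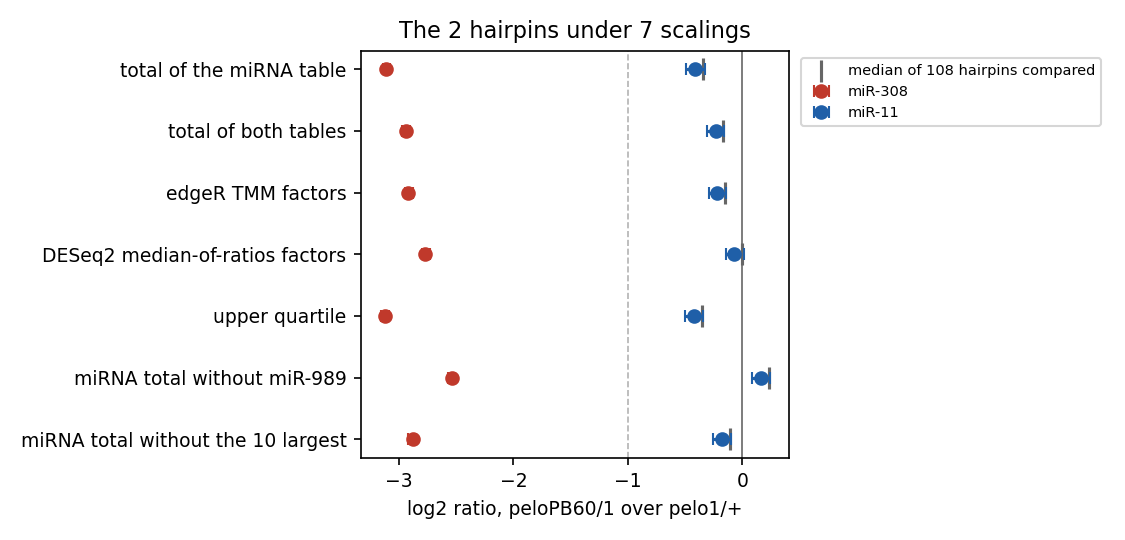
Log2 ratio of peloPB60/1 over pelo1/+ for miR-308 and miR-11 under 7 scalings, with 95% counting intervals as bars and the median of 108 hairpins as a grey tick. miR-308 lies between -3.12 and -2.54, past the dashed 2-fold line in each, and miR-11 between -0.42 and 0.16, next to the median, with its sign turned without miR-989.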

How the data were processed

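The authors deposited raw read counts for each hairpin, not normalized, from small RNA purified by size per the labels' protocols. The submitters' processing notes list Bowtie 0.12.7 and BDGP5 with no role. How multi-mapping reads, strand and mismatches were handled is not given in the sources used here. The piRNA tables (5229331 and 4872519 counts) served for 1 alternative scaling. Counts were divided by the total of the miRNA table (CPM, per 1000000 reads), which counts miRNA reads alone and not the whole library. Log2 ratios had 0.5 counts added, and intervals were exact Clopper-Pearson or exact conditional odds ratio intervals (scipy 1.17.1) or, for single counts, exact Poisson intervals. Reads carry no molecular identifiers. With 1 library per genotype no test was possible; edgeR 4.0.16 and DESeq2 1.42.0 gave scaling factors only. A hairpin listed for 1 library was given 0 counts in the other. Hosts came from Ensembl release 115, in which 233 of 235 names were found; its build differs from BDGP5, so no coordinates are given. No mature sequence was at hand, so none is printed and K-box membership is by name. The computation was tested on simulated counts with counting error only, which cannot show how the calls fare with the spread between ovary samples. The hairpins, lists and alternatives were chosen with earlier results of these data known. Named hairpins are the pair, the K-box list, the 2 neighbours in rank on each side, the 5 nearest in log2 ratio, the 8 intronic hairpins with the most reads, the apoptosis list and miR-989. miR-998, miR-79, miR-1013, miR-962 and the 3 larger drops in share were chosen after their values were seen.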

Additional observations from a re-analysis of the deposited data

How the results depend on the processing

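The log2 ratio of miR-308 was -2.94 with the total of both tables, -2.92 with TMM, -2.77 with median-of-ratios factors, -2.54 without miR-989 in the totals and -2.88 without the 10 largest hairpins. That of miR-11 was -0.23, -0.22, -0.07, 0.16 and -0.18 in the same order, against -3.11 and -0.41. Upper quartiles gave -3.12 and -0.42, and 1 added count left both values and the change of their ratio, -2.70, as they were. Without miR-989 the number of higher calls moved by over 1.5 times, from 17 to 27. That of lower calls moved by less, from 34 to 24, so that the balance of the calls turned. Under a 4-fold rule both numbers moved by over 1.5 times, to 8 higher and 11 lower. The median of the K-box list turned from -0.41 to 0.16 without miR-989 and to 0.34 with copies summed by name, an alternative chosen after seeing the data. Among K-box hairpins with no numbered copy, miR-308 accounted for 95.1% in pelo1/+ and for 75.7% in peloPB60/1. These scalings multiply all counts of a library by 1 factor, so ranks and ratios between hairpins are the same under each. No paired analysis was possible because pelo1/+ and peloPB60/1 have a single library each, which also means that leaving out a library leaves no comparison. With 7783 and 2465 reads, depth limits the shares of the pair little, and the spread between ovary samples is not known.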
